A study of Mus musculus with 76 samples.

Results

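The immediate early genes examined here are *Fos*, *Fosb*, *Jun*, *Junb*, *Jund*, *Egr1*, *Nr4a1*, *Arc*, *Npas4* and *Ier2*, 10 of the 56980 genes in a table of read counts from 76 Patch-seq cells. They were chosen by name as activity-induced genes, with their counts in these cells already known, so their values are given as a description and without a test. Patch-seq joins whole-cell recording of a neuron in a slice with sequencing of the RNA drawn up through the same pipette. The cells were tdTomato-traced neurons of the hypothalamus from male PomcCreERT2;tdTomato;Pomc-eGFP mice, in which a tamoxifen-inducible Cre under *Pomc* promoter elements marks for good the cells where these elements are active when tamoxifen is given, at 12 weeks of age, and eGFP reports *Pomc* promoter activity at the time of recording. The study's results name this line, whereas its methods name the cells as coming from PomcCreERT2;tdTomato mice. All mice of every group carried the tracer and received tamoxifen. Cells with eGFP were labelled Pomc+ and cells without it Ghost, and mice were fed chow (CD) or high-fat diet (HFD) for 6 months. On CD there were 23 cells labelled Pomc+ and 15 labelled Ghost, and on HFD there were 19 of each. Cells came from 5 mice per diet in 3 experiments, but the labels tie no cell to a mouse, so each label on each diet counts as 1 sample and no p-value or standard error was made from cells.

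Immediate early genes are transcribed within minutes of a stimulus without new protein synthesis, and in neurons calcium entry and kinase signalling to the factors CREB and SRF switch them on. Most of them encode transcription factors. Fos and Jun family proteins pair to form AP-1, Egr1, Nr4a1 and Npas4 bind DNA on their own sites, and Arc acts at synapses. Because the transcripts are short-lived, they are widely used as a record of recent activity. The study's methods describe slices that were cut, rested and recorded before the content of the cell was drawn up. The counts can therefore also record these steps, and their part in the levels was not tested. In this tissue Pomc neurons of the arcuate nucleus sense hormones and nutrients and lower food intake.

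All counts on genes summed to 32910186, with 4057 to 1452605 per cell and a median of 322652. The median total was 339691 in Pomc+ and 123528 in Ghost cells on CD, and 393797 and 333785 on HFD. Levels are given as CPM, the reads of a gene scaled to the total of its cell. Counts are of reads and not of molecules, and intervals on shares are exact Clopper-Pearson intervals at 95% that cover counting error only. At least 1 of 8 neuron markers had a count in 74 of 76 cells, and *Pomc* itself had one in 41 of 42 Pomc+ and 32 of 34 Ghost cells. Its mean level was 11652 CPM in Pomc+ and 6296 CPM in Ghost cells on CD, but 3414 and 3686 CPM on HFD, where the Ghost median was also above the Pomc+ median, at 4171 against 2206 CPM. The cells called Ghost are thus those labelled so by eGFP, and on HFD they did not hold less *Pomc* RNA on average. The median summed level of 10 microglia markers was 47.8 CPM in Pomc+ and 3.98 CPM in Ghost cells on CD, against 348 CPM and 760.4 CPM on HFD. Endothelial and mural markers had a count in 2, 0, 5 and 2 cells of the Pomc+ CD, Ghost CD, Pomc+ HFD and Ghost HFD groups.

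The sequences just before the start sites are shown for the AP-1 genes *Fos*, *Fosb*, *Jun* and *Junb*. That of *Jund*, the other AP-1 gene among the members, is not printed. The letters TGACG, or CGTCA on the other strand, are the core of the cAMP response element bound by CREB, and they are in capitals. Each line gives the 250 bases before the RefSeq start on GRCm38.p6, read 5′ to 3′ on the strand of the gene.
Fos: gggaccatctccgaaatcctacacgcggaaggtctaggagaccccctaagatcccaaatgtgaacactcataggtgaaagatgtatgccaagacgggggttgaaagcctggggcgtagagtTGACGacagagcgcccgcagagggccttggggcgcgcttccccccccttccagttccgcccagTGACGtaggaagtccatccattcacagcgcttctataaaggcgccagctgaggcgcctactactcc
Fosb: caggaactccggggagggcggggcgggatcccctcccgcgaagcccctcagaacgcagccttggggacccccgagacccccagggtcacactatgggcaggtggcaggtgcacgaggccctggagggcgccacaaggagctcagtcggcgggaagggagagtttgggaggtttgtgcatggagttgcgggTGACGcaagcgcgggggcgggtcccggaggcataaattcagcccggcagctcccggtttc
Jun: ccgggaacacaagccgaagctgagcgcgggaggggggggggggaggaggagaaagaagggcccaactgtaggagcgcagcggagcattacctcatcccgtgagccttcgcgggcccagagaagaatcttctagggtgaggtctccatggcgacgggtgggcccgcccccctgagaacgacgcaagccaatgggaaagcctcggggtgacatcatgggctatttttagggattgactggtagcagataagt
Junb: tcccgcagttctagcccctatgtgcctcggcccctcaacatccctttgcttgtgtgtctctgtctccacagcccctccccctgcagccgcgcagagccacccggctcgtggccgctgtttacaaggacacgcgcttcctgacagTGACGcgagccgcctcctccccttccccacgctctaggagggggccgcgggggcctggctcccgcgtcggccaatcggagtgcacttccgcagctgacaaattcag
These windows lie at chr12:85473640-85473889 on the plus strand for *Fos*, and on the minus strand at chr7:19310046-19310295 for *Fosb*, chr4:95052223-95052472 for *Jun* and chr8:84978749-84978998 for *Junb*. The *Fos* window held the core 2 times, starting 129 and 66 bases before the start. In *Fosb* it started 60 and in *Junb* 106 bases before the start, and the *Jun* window held none. Among all 32851 promoter windows of the same length, 17.8% held the core at least once and 3.90% held it 2 or more times. The table of RefSeq promoters used here matched 7 of the 10 members, the others being *Egr1*, *Arc* and *Ier2*. Of the other entries, *Npas4* held 2 cores, *Nr4a1* 4 and *Jund* 0, although the RefSeq start of *Nr4a1* lies inside the GENCODE gene, that of *Jund* lies upstream of it, and the *Npas4* window falls within GENCODE exons. The full element, in which the core is followed by TCA, was in none of the 7 windows and in 1.55% of all windows.

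*Fos* was the leading member. It had a count in 50 of 76 cells, 65.8% (54% to 76.3%), held 40.5% of all counts of the 10 genes, and had the most counts of the 10 in 35 cells. At full depth only *Jund* was counted in more cells, 58 of 76 or 76.3% (65.2% to 85.3%), while at 40000 counts per cell *Fos* was ahead with 59.6% against 50.8%. *Jun* followed with 38 cells, *Junb* with 37, *Egr1* with 35, *Fosb* with 21, *Npas4* with 18, *Ier2* with 12, *Nr4a1* with 7 and *Arc* with 4. *Jund* had 899 counts in its 58 cells and *Ier2* 789 counts in its 12.

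Levels of different genes were compared per kilobase of merged exon in GENCODE. *Fos* averaged 137 CPM per kb over all cells and 85.5 to 221 CPM per kb in the 4 groups, and no other member reached its lowest group mean. *Junb* averaged 34, *Jun* 28.2, *Egr1* 27.8, *Jund* 15.8 and *Ier2* 11.3 CPM per kb. The group means of these 5 genes overlapped, from 14 to 68.2 for *Junb* and from 6.14 to 63.7 for *Egr1*, so their order is not separated by the spread between groups. *Fosb* at 6.51, *Npas4* at 6.08, *Arc* at 3.72 and *Nr4a1* at 0.880 CPM per kb were lowest. Among these 4 the group means overlapped except that those of *Fosb* all lay above those of *Nr4a1*.

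**Figure D1:**
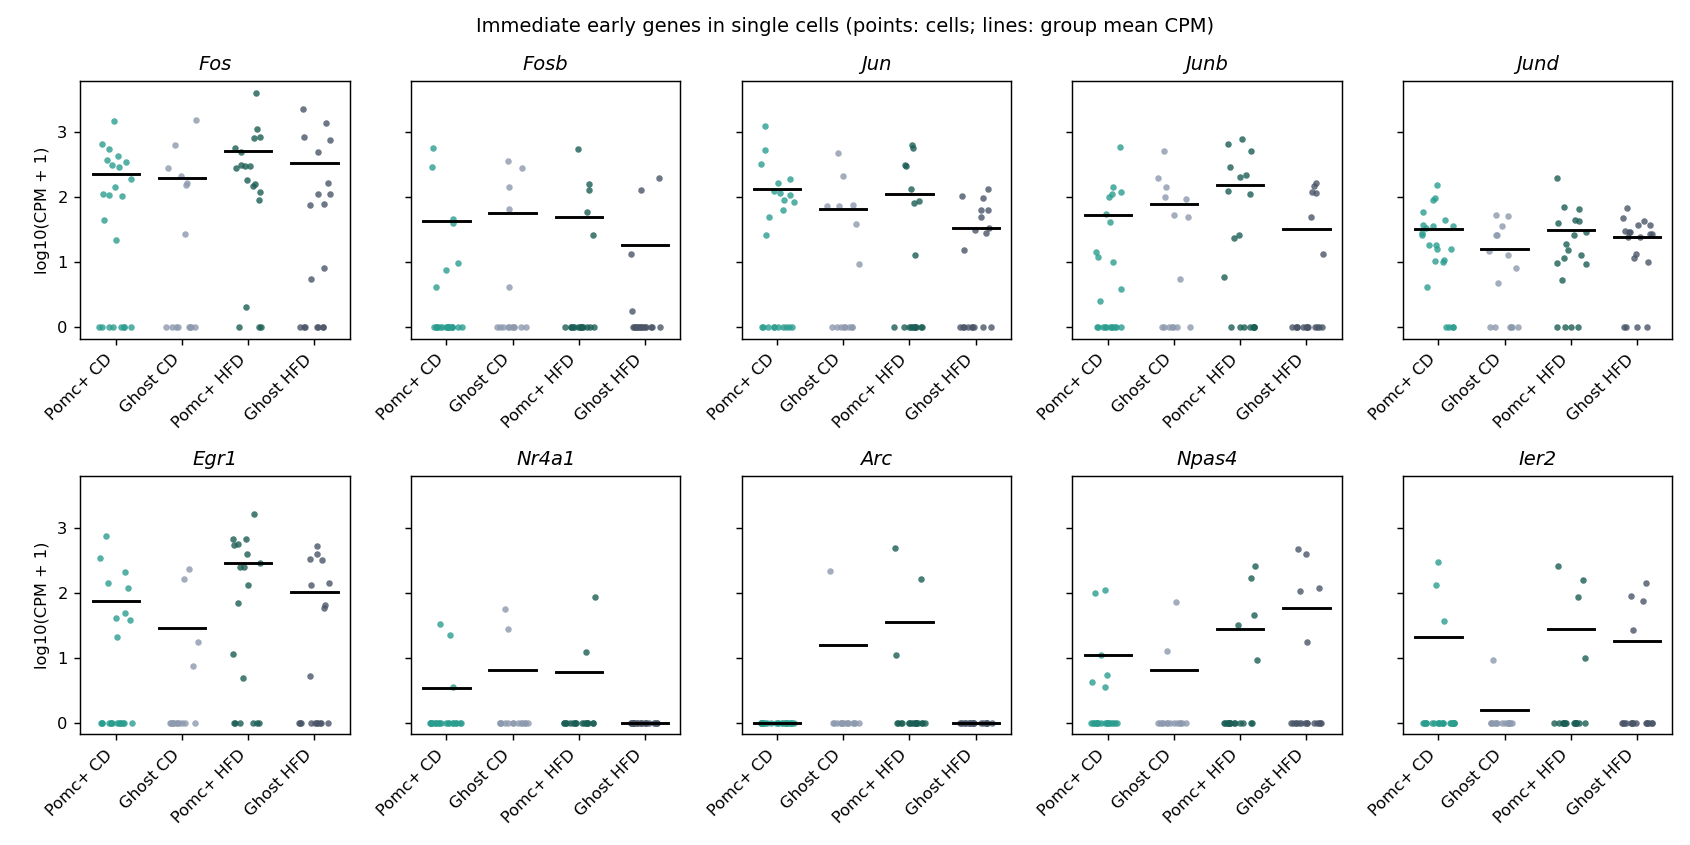
Level of each immediate early gene in single cells, as log10(CPM + 1) on the vertical axis, for 23 Pomc+ CD, 15 Ghost CD, 19 Pomc+ HFD and 19 Ghost HFD cells. Points are cells and black lines the group mean CPM on the same scale; cells without a count lie at 0, and every group of every gene has such cells.

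In every group the lowest cell had no count of any given member, so values are given as the median and the highest cell. *Fos*, the inducible AP-1 partner used most as an activity marker, had a median of 109 CPM and a highest value of 1512 CPM in Pomc+ cells on CD, and a median of 0 and a highest value of 1527 CPM in Ghost cells on CD. On HFD the median was 285 CPM in Pomc+ cells with a highest value of 4065 CPM, and 75.3 CPM in Ghost cells with a highest value of 2326 CPM. The 4 groups overlapped over almost their whole range. It was counted in 15 of 23 Pomc+ CD cells, 65.2% (42.7% to 83.6%), in 7 of 15 Ghost CD cells, 46.7% (21.3% to 73.4%), in 16 of 19 Pomc+ HFD cells, 84.2% (60.4% to 96.6%), and in 12 of 19 Ghost HFD cells, 63.2% (38.4% to 83.7%). At an equal depth of 40000 counts per cell, which leaves out 8 shallower cells, these shares were 64.2%, 38.8%, 77.8% and 49.5%. Ghost cells were thus below Pomc+ cells on each diet at both depths, but all 4 intervals overlap. A few cells carried most of the level. The highest Pomc+ HFD cell, with 2894 *Fos* counts, held 41.1% of the summed CPM of its group, and the highest Ghost HFD cell owed its value to 30 *Fos* counts among 12900 in all, close to the shallowest of its group. *Fosb*, a paralog that lasts longer after repeated stimulation in its truncated form, was counted in 7, 5, 5 and 4 cells of the groups in the same order, with a median of 0 in all 4 and highest values of 577, 361, 545 and 195 CPM.

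*Jun*, *Junb* and *Jund* encode the Jun partners of AP-1, of which *Jund* is the least inducible. *Jun* had a count in 13 of 23 Pomc+ CD, 7 of 15 Ghost CD, 8 of 19 Pomc+ HFD and 10 of 19 Ghost HFD cells. Its medians were 48.9, 0, 0 and 14.6 CPM and its highest values 1240, 487, 631 and 133 CPM in that order, so the Ghost HFD cells covered the narrowest range. *Junb* had a count in 12, 8, 11 and 6 cells, with highest values of 587, 515, 790 and 163 CPM, again narrowest in Ghost HFD cells. *Jund* was the most even member. Its medians were 17.7, 7.10, 14.6 and 26.1 CPM and its highest values 156, 51.7, 198 and 67.3 CPM, and its highest cell held 9.91% of its summed CPM over all cells, against 16.6% for *Fos*. Exons of *Junb* overlap those of *Prdx2* on the opposite strand in GENCODE, and reads from them cannot be told apart without strand. *Prdx2* was counted in 58 cells and in 31 of the 37 cells with *Junb*, and the rank correlation of their CPM over the 76 cells was 0.13. Antisense models also overlap *Jun* (*Junos*, 82 counts in 3 cells) and *Jund* (*Gm11175*, 0 counts).

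*Egr1*, a zinc finger factor downstream of MAP kinase signalling and SRF, was counted in 9 of 23 Pomc+ CD cells, 39.1% (19.7% to 61.5%), and in 4 of 15 Ghost CD cells, 26.7% (7.79% to 55.1%). On HFD it was counted in 13 of 19 Pomc+ cells, 68.4% (43.4% to 87.4%), and in 9 of 19 Ghost cells, 47.4% (24.4% to 71.1%). The median was above 0 in the Pomc+ HFD group alone, at 131 CPM, and the highest cells stood at 752, 229, 1618 and 513 CPM in the order Pomc+ CD, Ghost CD, Pomc+ HFD and Ghost HFD. At 40000 counts per cell its shares were 38.8%, 24.2%, 58% and 41.3%, in the same order as at full depth.

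The other members were sparse. *Npas4*, a factor that responds to calcium in neurons, was counted in 6, 2, 5 and 5 cells, and the highest value of 465 CPM, in a Ghost HFD cell, rested on 6 counts. *Ier2* was counted in 3, 1, 4 and 4 cells, and the Ghost CD cell held 1 count. *Nr4a1*, an orphan nuclear receptor, was counted in 3, 2, 2 and 0 cells. *Arc*, which is needed for lasting synaptic change, was counted in 0 of 23 Pomc+ CD cells, which allows a share of up to 13% by a limit of 3 counts and up to 14.8% by the exact interval, in 1 Ghost CD cell with 6 counts, in 3 Pomc+ HFD cells with 147 counts together, and in 0 of 19 Ghost HFD cells, which allows up to 15.8% and 17.6% by the same limits. The exact intervals of the 4 groups overlapped for *Arc* and for *Nr4a1*, and every ratio given for them rests on at most 5 cells with a count on either side.

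**Figure D2:**
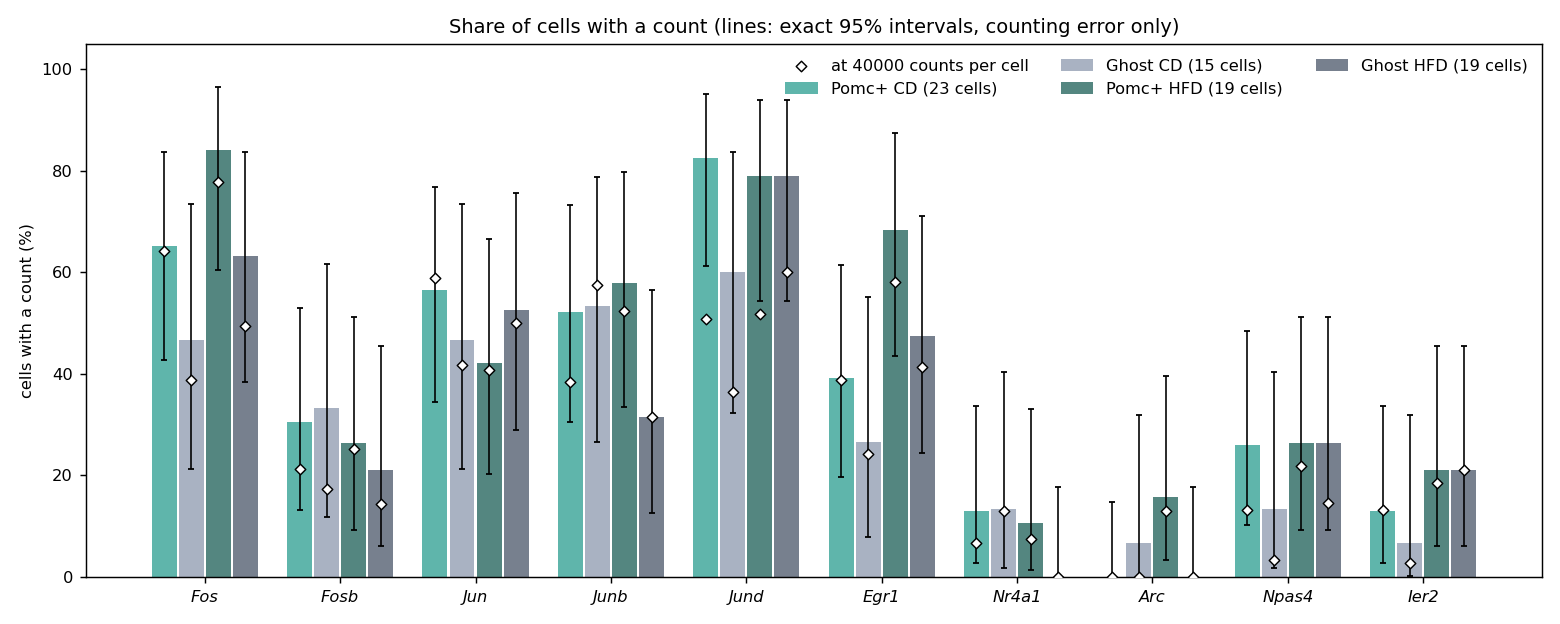
Percentage of cells with a count of each gene in the 4 groups, as bars with exact 95% intervals, and at 40000 counts per cell as diamonds. The intervals of the 4 groups overlap for every gene, the widest gap between bars is for *Egr1*, and over all cells *Jund* falls from 76.3% to 50.8% at equal depth.

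Ghost and Pomc+ cells were compared to see whether absence of the eGFP signal went with another level of these genes. Over both diets 9 of the 10 means were lower in Ghost cells, against 56.2% of all 12265 tested genes. Genes were tested here if 3 or more cells had 5 or more counts of them. *Jun* averaged 46.5 CPM in Ghost and 125 CPM in Pomc+ cells, a ratio of 0.372, and *Egr1* averaged 69.1 and 170 CPM, a ratio of 0.407. *Arc* and *Ier2* had ratios of 0.412 and 0.431 from 4 and 12 cells, and *Npas4* alone was higher, at 1.97, although in cells of at least 40000 counts it was lower in Ghost cells on both diets. These 4 genes were at least 2-fold lower, against 26% of all tested genes, and 0 members were at least 2-fold higher, against 16.4%. The median log2 ratio of the members was -0.80 and that of all tested genes -0.15. Some of these directions rest on 1 cell. Without the Pomc+ HFD cell with the most *Fos* the *Fos* ratio went from 0.767 to 1.03, without 1 Pomc+ CD cell *Fosb* went from 0.778 to 1.09, without 1 Pomc+ HFD cell each *Nr4a1* went from 0.666 to 1.46 and *Arc* from 0.412 to 1.54, and without the Ghost HFD cell with 30 *Fos* counts *Npas4* went to 1.23. The *Ier2* ratio was 0.606 without 1 Pomc+ CD cell and 0.257 without 1 Ghost HFD cell. *Jun* stayed between 0.265 and 0.475 and *Egr1* between 0.328 and 0.514 whichever cell was left out.

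Within each diet *Jun* and *Egr1* again had lower means in Ghost cells, as did *Fos*, *Jund* and *Ier2*. On CD the *Jun* ratio of Ghost to Pomc+ means was 0.475 and that of *Egr1* 0.372, and on HFD they were 0.288 and 0.357. They are the only 2 members at least 2-fold lower on both diets, against 12% of all tested genes, and 0 members were at least 2-fold higher on both, against 5.91%. With the 7 genes counted in every cell taken out of the totals, the CD ratio of *Jun* was 0.531, under 2-fold. On HFD the median of *Jun* went the other way, at 14.6 CPM in Ghost and 0 CPM in Pomc+ cells. So did its cells with a count, 10 of 19 against 8 of 19. Over both diets *Jun* was counted in 50% of the cells of each label. On CD the Ghost mean was below the Pomc+ mean for 6 members and above it for 4, a split of 8 to 2 in the deposited normalized values, in which *Fosb* and *Junb* turned lower. Of all tested genes 54.9% were lower on CD, and in the normalized values 8465 of 12037 were. At least 2-fold lower on CD were 4 members (*Jun*, *Jund*, *Egr1* and *Ier2*, the last from 1 count in Ghost cells), against 31.1% of tested genes, and at least 2-fold higher were 2 (*Nr4a1* and *Arc*), against 23.1%. On HFD 6 were at least 2-fold lower (*Fosb*, *Jun*, *Junb*, *Egr1* and, with no count in Ghost cells, *Nr4a1* and *Arc*), against 33.9%, and *Npas4* was at least 2-fold higher, against 21.3%. In cells of at least 40000 counts the direction of *Npas4* on HFD turned, with a mean of 14 CPM in Ghost and 28.1 CPM in Pomc+ cells. *Junb* had a ratio of 1.5 on CD and 0.205 on HFD, and without 1 Ghost CD cell, which held 44.3% of the summed CPM of its group, the CD ratio was 0.894. Several of the other ratios also rest on 1 cell. Without the Pomc+ CD cell numbered 662 the CD ratio of *Jun* was 0.755 and that of *Egr1* 0.637, both under 2-fold, while without the Ghost cell 709 that of *Jun* was 0.253 and without the Ghost cell 661 that of *Egr1* was 0.178. Without cell 661 the CD ratio of *Nr4a1* was 0.770, and without the Pomc+ cell 701 that of *Jund* was 0.569. On HFD the ratio of *Fosb* was 0.850 without the Pomc+ cell 638 and 0.164 without the Ghost cell 671, and that of *Npas4* was 1.31 without the Ghost cell 657 and 4.17 without cell 638. The HFD ratios stayed between 0.238 and 0.387 for *Jun* and between 0.277 and 0.481 for *Egr1*. In blocks of consecutive cell numbers of 1 diet with at least 3 cells of each label, the Ghost mean was below the Pomc+ mean in 5 of 6 blocks for *Jun*, *Jund*, *Egr1* and *Ier2*, in 4 for *Fos* and *Junb*, in 3 for *Fosb*, *Nr4a1* and *Npas4* and in 2 for *Arc*. The median log2 ratio of the members was -3.31 over 5 genes in the first CD block and 1.20 over 7 genes in the last, so the blocks differed in direction.

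Astrocyte markers moved in the same direction as the members. All 7 were lower in Ghost than in Pomc+ cells over both diets, with a median log2 ratio of -1.54. The summed level of the 7 ranged from 0 to 4307 CPM in Pomc+ and from 0 to 2110 CPM in Ghost cells on CD, and from 0 to 3644 CPM and from 0 to 1431 CPM on HFD. On CD alone 5 of the 6 with a ratio were lower, while *Slc1a2* was higher at 118 against 68.7 CPM. *Slc1a3* had mean ratios of 0.253 on CD and 0.0769 on HFD. Neuron markers were lower for 7 of 8, with a median of -0.37. Their part in the result was not tested. In the 13 Pomc+ CD, 11 Ghost CD, 8 Pomc+ HFD and 16 Ghost HFD cells with at most 500 CPM of astrocyte markers, the ratio of *Jun* was 1.16 on CD and 0.242 on HFD, and that of *Egr1* was 1.35 and 0.193. The lower Ghost means of both genes were thus absent on CD and present on HFD among these cells. The limit was chosen after the data were seen.

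**Figure D3:**
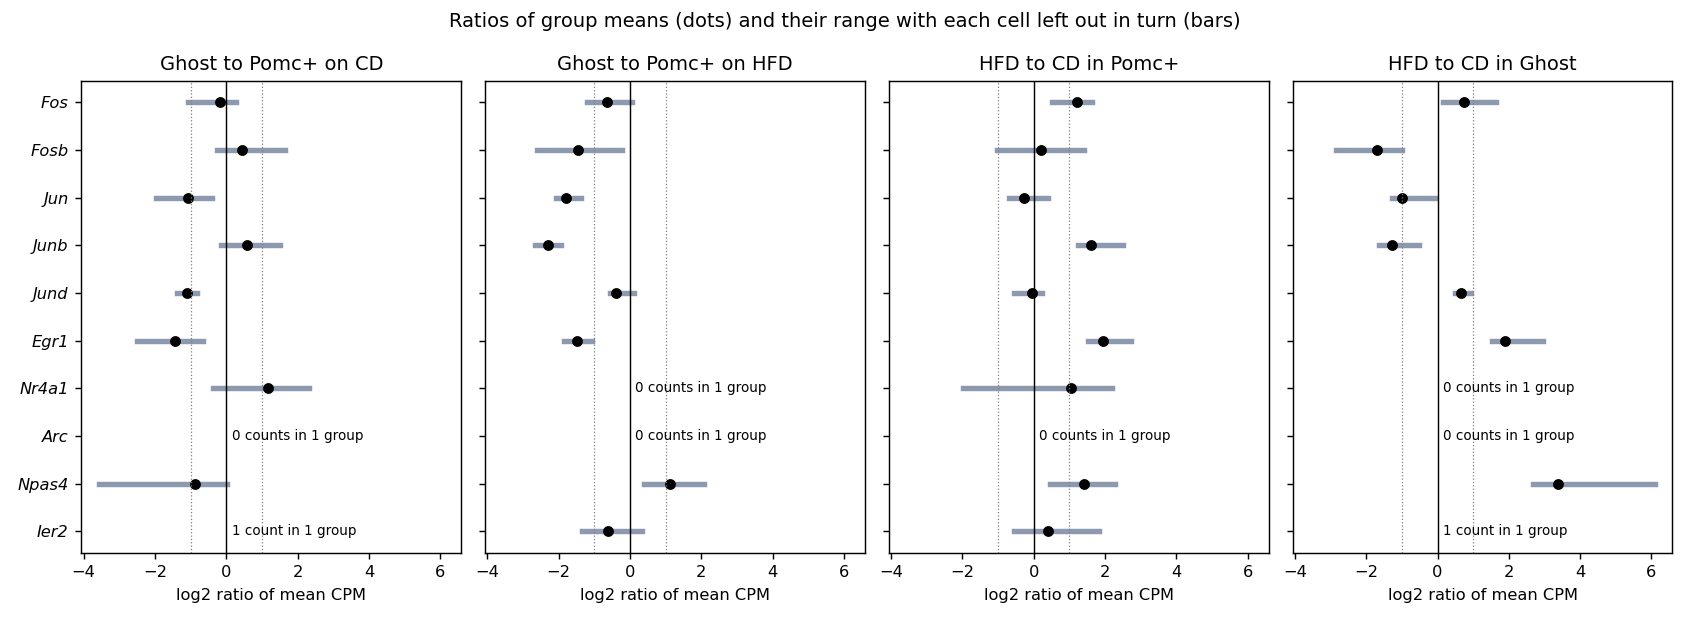
Log2 ratio of group mean CPM for the 10 genes in 4 comparisons, with dots for the ratio over all cells and bars for its range when each cell is left out in turn. Dotted lines mark 2-fold. *Fos*, *Jun*, *Jund* and *Egr1* lie left of 0 in both comparisons of labels, where the bars of *Jun* and *Egr1* do not reach 0. *Fos*, *Egr1* and *Npas4* lie right of 0 in both comparisons of diets. A ratio is not drawn where a group had 0 counts or 1 count.

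HFD and CD were compared within each label. In Pomc+ cells 8 of 10 means were higher on HFD, against 53.7% of all tested genes, and 6 were at least 2-fold higher, against 28.5% of all tested genes. *Egr1* averaged 286 CPM on HFD and 74.1 CPM on CD, a ratio of 3.86. *Junb* averaged 157 and 51.8 CPM, a ratio of 3.03, and *Fos* averaged 520 and 226 CPM, a ratio of 2.30. *Npas4* had a ratio of 2.66 and *Nr4a1*, from 5 cells, one of 2.05, and *Arc* was counted on HFD alone. The direction of *Nr4a1* reversed in the deposited normalized values, and that of *Fosb*, at a ratio of 1.14, when the 7 genes counted in every cell were taken out of the totals. *Jun* at 0.830 and *Jund* at 0.970 were the 2 with lower means, and 0 members were at least 2-fold lower, against 22.4%. The median log2 ratio of the members was 1.04 and that of all tested genes 0.12. It was 0.48 without the Pomc+ HFD cell with the most *Fos*, in which 8 members were counted and which had 7705 CPM of them together. Without that cell the *Fos* ratio was 1.43 and that of *Npas4* 1.38, and without 1 other HFD cell that of *Nr4a1* was 0.254. *Egr1* stayed between 2.86, without that cell, and 6.60, without the Pomc+ CD cell 662, and *Junb* reached 5.70 without the CD cell 667 and did not go under 2.35.

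In Ghost cells *Egr1* also had the higher mean on HFD, 102 CPM against 27.5 CPM on CD, a ratio of 3.70 that stayed between 2.87 and, without the CD cell 661, 7.74. The other genes were split. *Fos* had a ratio of 1.66, *Jund* of 1.57 and *Npas4* of 10.5, the last from 5 counts on CD, while *Fosb* had 0.311, *Junb* 0.414 and *Jun* 0.502. Without the CD cell 691 the *Fos* ratio was 3.14, and in the deposited normalized values it was 3.26. Without the Ghost HFD cell with 30 *Fos* counts the *Fos* ratio was 1.11 and that of *Npas4* 6.36 (68.8 without the CD cell 659), without 1 other HFD cell that of *Fosb* was 0.139, and without 1 CD cell each that of *Jun* was 0.944 and that of *Junb* 0.693. At least 2-fold higher were 3 members (*Egr1*, *Npas4* and, against 1 count on CD, *Ier2*), against 29.3% of tested genes, and at least 2-fold lower were 4 (*Fosb*, *Junb* and, with no count on HFD, *Nr4a1* and *Arc*), against 27.4%. *Egr1* and *Npas4* were at least 2-fold higher in both labels, as were 10.1% of tested genes, and 0 members were at least 2-fold lower in both, against 7.18%. *Junb* was higher on HFD in Pomc+ and lower in Ghost cells, and this difference between labels was not tested.

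The diets alternate along the cell numbers in 8 blocks, each of 1 diet, so block and diet cannot be told apart within a block. Across blocks, the mean *Egr1* level of Pomc+ cells was 9.92 to 143 CPM in the 4 CD blocks and 242 to 665 CPM in the 4 HFD blocks. These ranges do not overlap, but the highest HFD block is 1 cell. The lowest HFD block, of 10 Pomc+ cells, had a median of 0 and a count in 4 cells. Its cell 638 stood at 1618 CPM and the others with a count at 538, 250 and 10.6 CPM. The gap between the block ranges thus rests on cell 638. In Ghost cells the block means were 2.14 to 57.2 CPM on CD and 15.4 to 327 CPM on HFD and overlapped, as did those of *Fos* in both labels. Microglia markers moved with diet. All 10 were at least 2-fold higher on HFD in each label, and their summed level ranged from 0 to 2830 CPM in Pomc+ and from 0 to 2254 CPM in Ghost cells on CD, and from 0 to 13738 CPM and from 0 to 10233 CPM on HFD. *P2ry12*, *Tmem119* and *Csf1r* were at 0 in Pomc+ cells on CD. In the 15 Pomc+ CD, 11 Ghost CD, 7 Pomc+ HFD and 4 Ghost HFD cells with at most 100 CPM of these markers, *Egr1* was higher on HFD by a ratio of 4.60 in Pomc+ and 9.82 in Ghost cells, with counts in 6 of 7 and 2 of 4 HFD cells. *Fos* had ratios of 3.37 and 0.955 in these cells, and *Junb* of 2.44 and 1.11. Over the 76 cells the rank correlation of the microglia marker sum was 0.098 with *Egr1* and 0.17 with *Fos*.

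Single cells held from 0 to 9 of the 10 genes. The mean number was 3.78 ± 2.63 in Pomc+ CD, 3.07 ± 2.02 in Ghost CD, 4.32 ± 2.50 in Pomc+ HFD and 3.42 ± 2.17 in Ghost HFD cells (SD over 23, 15, 19 and 19 cells). At 40000 counts per cell these means were 3.05, 2.35, 3.67 and 2.82, so Pomc+ cells on HFD kept the highest and Ghost cells on CD the lowest mean. The differences between groups were smaller than the spread among cells of a group. At least 2 members had a count in 18 of 23 Pomc+ CD cells, 78.3% (56.3% to 92.5%), in 12 of 15 Ghost CD cells, 80.0% (51.9% to 95.7%), and in 17 of 19 cells of each label on HFD, 89.5% (66.9% to 98.7%). No member was counted in 6 cells, of which 2 were Pomc+ CD, 3 Ghost CD, 0 Pomc+ HFD and 1 Ghost HFD, and 8 or more were counted in 8 cells, of which 3 were Pomc+ CD, 4 Pomc+ HFD and 1 Ghost HFD. The number of members per cell followed the number of genes detected, with a rank correlation of 0.79 over 76 cells that share this depth, and of 0.68 to 0.82 within the 4 groups. With total counts it was 0.41.

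**Figure D4:**
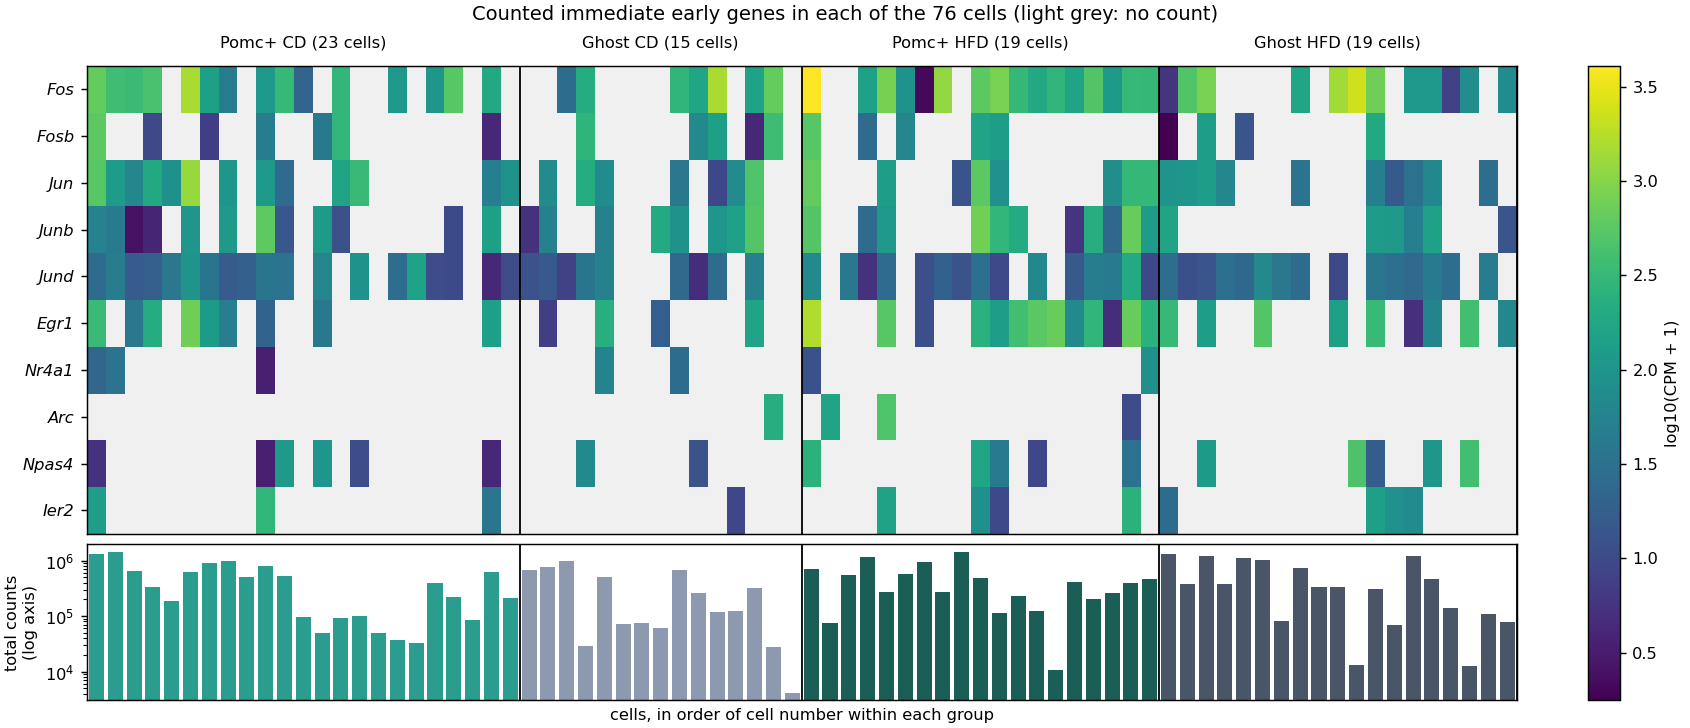
Level of the 10 genes in each of the 76 cells as log10(CPM + 1), with light grey where no count was found, above the total counts of the same cell on a log axis. Columns with many coloured rows occur in each group and most often among Pomc+ cells, and the *Jund* row is the most evenly filled.

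The pairs of members counted most often in the same cell were *Fos* with *Jund* in 41 cells, *Jun* with *Jund* in 36 and *Junb* with *Jund* in 32. The product of the shares of the genes gives 38.2, 29 and 28.2 cells for these pairs, so *Jun* with *Jund* stood furthest above it, at a ratio of 1.24. Over all 45 pairs 41 were found together in more cells than that product, 3 in fewer and 1 in as many, and the median ratio was 1.31. At 40000 counts per cell, with 68 cells, 39 pairs stood above their product and the median ratio was 1.36. Cells were not matched on the number of genes detected, and the part of that number in joint detection was not tested. Pairs of other genes were not counted, so no background stands beside these values. All pairs share the depth and gene number of the cell, and the rank correlation of CPM over 76 cells was above 0 in 42 of 45 pairs, with a median of 0.25 and a highest value of 0.56 for *Junb* with *Ier2*. *Ier2* was found with *Jun* and with *Junb* in 12 of its 12 cells, and *Nr4a1* with *Jun*, *Junb* and *Jund* in 7 of 7. *Arc*, in contrast, shared 0 cells with *Nr4a1* and 2 of its 4 cells with *Jun*. At least 1 Fos and 1 Jun gene, both sides of AP-1, were counted in 46 of 76 cells, 60.5% (48.6% to 71.6%). By group these were 15 of 23 Pomc+ CD, 6 of 15 Ghost CD, 14 of 19 Pomc+ HFD and 11 of 19 Ghost HFD cells. A Jun gene without a Fos gene was counted in 17 cells and the reverse in 6. In all, a Fos gene was counted in 52 of the 76 cells and a Jun gene in 63, so these shares alone give many cells with both. Whether cells with both exceed the product of the shares was not tested.

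**Figure D5:**
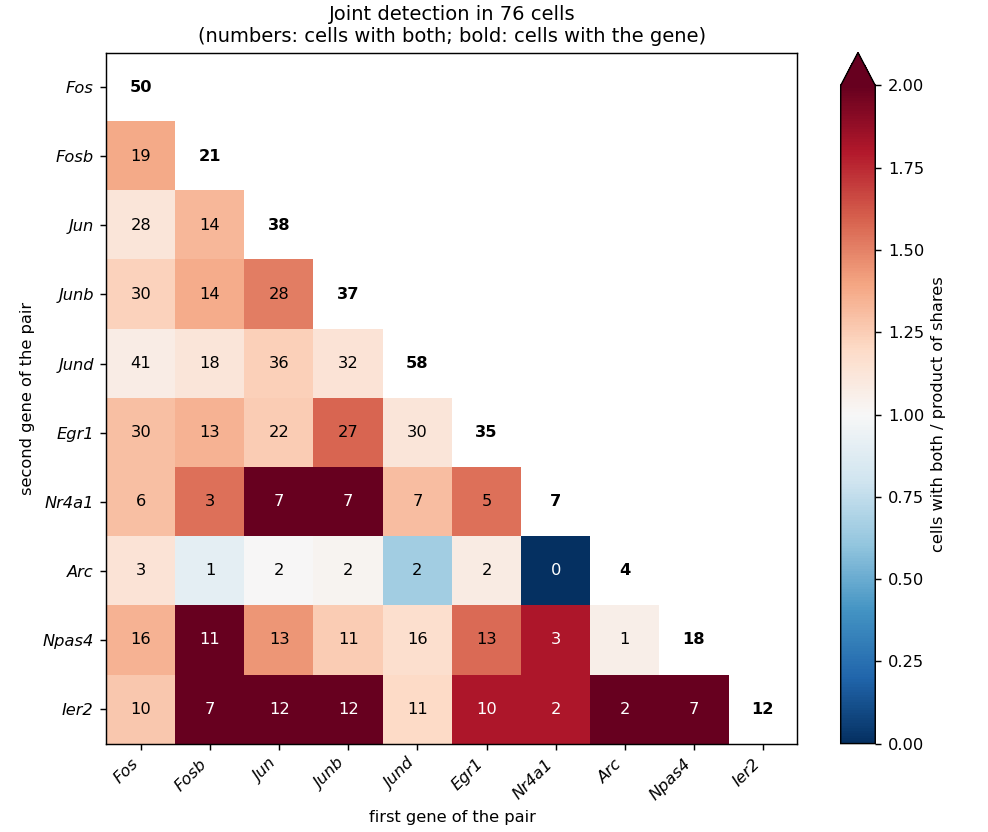
Number of the 76 cells with a count of both genes of a pair, on a colour scale of its ratio to the product of the 2 shares, with the number of cells for each gene in bold on the diagonal. Red marks more cells than the product gives and blue fewer; 41 of 45 pairs are above 1, and those of *Arc*, counted in 4 cells, run from 0 with *Nr4a1* to 3.17 with *Ier2*.

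Genes of the same programme were read from lists outside the 10. Of 21 other immediate early transcription factors all were counted, 9 of them in at least 10 cells. Over both diets the Ghost mean was above the Pomc+ mean for 11 and below it for 10, and the median log2 ratio over those counted in both labels was 0.70, against -0.15 for all genes, and 0.25 with a label at 0 set to its bound. Among the 9 genes with a count in at least 10 cells, *Klf6*, *Btg2* and *Ier3* were at least 2-fold lower in Ghost cells on both diets, against 12% of all tested genes. At least 2-fold higher on both were 0, against 5.91%. *Klf6* stood at 10.3 against 35.3 CPM on CD and 8.53 against 68.4 CPM on HFD. The ratios of list genes were not recomputed with single cells left out. Below the limit of 10 cells *Fosl2*, *Egr4* and *Nr4a2*, each counted in 8 cells and named after their values were seen, were at least 2-fold higher in Ghost cells on both diets. *Atf3*, counted in 9 cells and also named after its values were seen, went the other way. It had 0 CPM in Ghost against 37.8 CPM in Pomc+ cells on CD, and 0.20 against 114 CPM on HFD. Of 14 feedback genes, 13 were counted, and the mean was lower in Ghost cells for 9, against 56.2% of all tested genes. *Dusp1*, a phosphatase that ends MAP kinase signalling, was lower at 26.2 against 79.1 CPM on CD and 26.9 against 111 CPM on HFD. Its rank correlation with the summed CPM of the 10 members over the 76 cells was 0.45, above that of 99% of 4977 genes counted in at least 20 cells. The other feedback genes counted in at least 20 cells were lower, *Gadd45g* at 0.24, *Rgs2* at 0.18 and *Rgs4* at 0.15. These values were above those of 64%, 44% and 37% of the 4977 genes.

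Effectors and upstream genes were less uniform. Of 15 activity-induced effectors 14 were counted, and the mean was lower in Ghost cells for 9. The share of all tested genes lower in Ghost cells was 56.2%, which is also the background for the upstream and heat shock genes below. On both diets 12% of all tested genes were at least 2-fold lower in Ghost cells and 5.91% at least 2-fold higher. *Nptx2*, a secreted pentraxin that gathers AMPA receptors, was lower on both diets at 14.6 against 39.9 CPM and 24.9 against 62 CPM. In Pomc+ cells 10 of the 14 had a lower mean on HFD than on CD, with a median log2 ratio of -1.13, opposite in sign to the 1.04 of the members. In Ghost cells 9 of 12 were lower on HFD, with a median of -1.02. Of the other immediate early transcription factors above, 7 of 19 were lower on HFD in Pomc+ cells, with a median of 0.71. In Ghost cells 11 of 17 of them were lower, with a median of -1.42. Of the feedback genes 3 of 12 were lower in Pomc+ cells, with a median of 0.10, and 3 of 11 in Ghost cells, with a median of 0.90. Of all tested genes 46.3% were lower on HFD in Pomc+ and 49.7% in Ghost cells. Of 31 upstream kinases and factors, Ghost means were below Pomc+ means for 18 and above them for 13, and their median log2 ratio was -0.091. *Prkaca*, the catalytic subunit of protein kinase A, had ratios of 0.458 on CD and 0.493 on HFD, and *Rps6ka1*, a kinase below ERK, was lower on both diets but was counted in 10 cells. *Mef2d*, an activity-regulated transcription factor, was higher in Ghost cells at 106 against 38.8 CPM on CD and 86.9 against 32.4 CPM on HFD. Of 9 heat shock genes, read as signs of stress, 5 were lower and 4 higher in Ghost cells, and *Hspa1a* was lower on both diets from 12 cells.

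The genes whose levels ran most like the summed level of the 10 members over the 76 cells were *Son*, with a rank correlation of 0.56 and a count in 63 cells, *Abcc5* at 0.55, *Srsf5* at 0.54, *Cpsf7* at 0.52 and *Itsn2* at 0.52. For *Fos* they were *Trmt1* at 0.52, *Gm1840* at 0.52, *Cit* at 0.51, *Sarnp* at 0.51 and *Gm6563* at 0.49. They are the highest of 4977 genes, whose median correlation was 0.20 with the summed level and 0.16 with *Fos*, and all share the depth of the cell. The summed level itself had a rank correlation of 0.43 with the number of genes detected and of 0.094 with total counts.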

How the data were processed

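The deposited raw table holds whole-number counts per gene and cell that the authors made without normalization. The deposited normalized table holds a signal: within a cell its ratio to the raw counts was constant, so each cell was scaled by 1 factor. The submitters' processing notes name cutadapt 2.10, STAR 2.7.5a, DESeq2 and the builds GRCm38 and mm10. The counting program, its strand setting and the annotation release are not given in the sources used here. Libraries were made with SMART-Seq and Nextera XT, and no molecular identifiers are described. Symbols were matched for 52073 of 56980 gene identifiers.

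CPM were computed from the raw counts with Python 3.11.15, numpy 2.4.6, pandas 2.3.3 and scipy 1.17.1. Detection at 40000 counts is the exact hypergeometric expectation, and 8 cells below that total were left out of it. Group means were compared by their ratio, called at 2-fold, and a group at 0 was set to 3 counts over its summed counts. All 76 cells entered the main values, no doublet caller was run on hand-patched cells, and functions were tested on simulated data. Positions and exon lengths are from GENCODE release 21 for mouse (vM21, GRCm38) and promoters from RefSeq. The alternatives were the deposited normalized values, CPM after removal of 7 genes that had a count in each cell and took 43.7% of all counts, equal depth, group medians, a cell filter (1000 or more genes and no more than 20% mitochondrial counts, which leaves out 5 cells), blocks of cell numbers and each cell left out in turn. Limits of 100 CPM of microglia and 500 CPM of astrocyte markers were added after the data were seen. The 10 genes and all gene lists were chosen with earlier results of these data known. Of the lists, genes were named if counted in at least 10 cells and at least 2-fold apart between labels in 1 direction on both diets, and the 5 genes most like the summed members and *Fos* and the 3 most frequent pairs were named. *Fosl2*, *Egr4*, *Nr4a2* and *Atf3* were named below that limit after their values were seen. Differences between labels or diets cannot be told apart from differences between mice.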

Additional observations from a re-analysis of the deposited data

How the results depend on the processing

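For Ghost to Pomc+, the median log2 ratio of the members stayed close to its main value in 7 of 8 alternatives over both diets and 8 of 9 on HFD. On CD 5 of 11 alternatives moved it, and some changed its sign. For HFD to CD it stayed close in 7 of 7 alternatives in Pomc+ and 6 of 7 in Ghost cells. Ratios of single genes often changed with 1 cell left out, as given above. Over both diets 1 member had the higher mean in Ghost cells, and this number was 0 at equal depth and 2 without cells over 500 CPM of astrocyte markers. The median log2 ratio of -0.80 became -1.68 in deposited normalized values, in which the median of all tested genes lay at -0.64. On CD, 4 members were higher in Ghost cells, against 2 in normalized values, at equal depth and without cells over 100 CPM of microglia markers, 1 by group medians and 0 in the block of cells 630 to 636. The CD median of -0.87 was -1.53 in normalized values, 0.12 by group medians over 2 genes, 0.43 without cells over 500 CPM of astrocyte markers, -3.31 in the block of cells 630 to 636 and 1.20 in that of cells 699 to 712. On HFD, 1 member was higher, against 0 at equal depth and 2 by group medians, in the block of cells 637 to 657 and without cells over either glial limit, and the median of -1.04 was -2.22 in the block of cells 713 to 720. Of the members, 8 were higher on HFD in Pomc+ cells, against 3 of 5 by group medians and 5 of 9 without cells over 100 CPM of microglia markers. In Ghost cells it was 5, against 3 of 4 by group medians, where the median log2 ratio of 0.69 became 1.88 from 1 gene. Scaling also changed the sign of *Fosb* and *Junb* in Ghost to Pomc+ cells on CD (-0.91 and -0.09 in normalized values) and of *Fosb* (-0.38 without the genes counted in every cell) and *Nr4a1* (-0.05 in normalized values) in HFD to CD in Pomc+ cells.

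When cells were left out singly, the number of members higher in Ghost cells ran from 1 to 3 over both diets, 2 to 5 on CD and 1 to 3 on HFD, and the number higher on HFD from 7 to 10 in Pomc+ and was 5 throughout in Ghost cells. The median log2 ratios ran from -1.05 to -0.65, -1.24 to -0.14 and -1.52 to -0.50 for Ghost to Pomc+ over both diets, on CD and on HFD, from 0.48 to 1.38 for HFD to CD in Pomc+ and from 0.44 to 1.19 in Ghost cells. The mean number of members per cell ran from 3.55 to 3.95, 2.86 to 3.29, 4.11 to 4.50 and 3.17 to 3.61 in Pomc+ CD, Ghost CD, Pomc+ HFD and Ghost HFD cells, and the share of cells with at least 2 from 77.3% to 81.8%, 78.6% to 85.7%, 88.9% to 94.4% and 88.9% to 94.4%. At equal depth the means fell to 3.05, 2.35, 3.67 and 2.82, and with at least 5 counts required to 2.91, 2.40, 3.84 and 2.84, outside the ranges just given. The shares fell to 71.5%, 64.8%, 75.5% and 74.1% at equal depth. The cause of each change was not tested. No paired analysis was possible because a cell number names 1 cell and the groups share none. Matched instead by blocks of cell numbers, the Ghost to Pomc+ ratio was 0.350 for *Jun* and 0.438 for *Egr1*.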
